A study of Mus musculus with 33 samples.

Results

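The genes described here are 9 transcription factors of the somite and its ventral derivative, the sclerotome: Pax1, Pax9, Nkx3-2, Foxc1, Foxc2, Meox1, Meox2, Tcf15 and Uncx. They were chosen by gene symbol, 9 of the 17120 genes in the count table, and all 9 were present and entered every test. Mouse embryonic stem cells (mESCs) carrying the ScxGFP tendon reporter were aggregated into embryoid bodies with the BMP inhibitor LDN-193189 and taken to paraxial mesoderm (PM) with LDN-193189 and the Wnt agonist CHIR. The 3 PM libraries were labelled as embryoid bodies and collected on day 6 (D6). From D6 the cells were plated in monolayer, in medium that the methods describe with TGFβ1, the hedgehog agonist SAG and FGF2, together with either CD1530 or AGN 193109 (AGN). CD1530 is an agonist of retinoic acid receptor gamma and was used for tendon induction, while AGN is an inverse agonist that lowers the activity of these receptors and was used for fibrocartilage induction. Cultures of each ligand were collected in 3 replicates at 5 time points from D6.25 through D6.75, D7.5 and D8.5 until D10, which made 11 groups and 33 libraries. The labels give no sort for the ScxGFP reporter. The methods call the 3 samples of a group biological replicates, and the sources used here do not give which ES line was used for which replicate. They also do not say whether AGN had been present in the PM stage of these libraries. P-values measure the spread between these samples.

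Somites are blocks of paraxial mesoderm that form along the neural tube. Hedgehog ligand from the notochord and floor plate induces the ventral part to become sclerotome, the source of vertebrae, ribs and axial tendon progenitors, and Pax1 and Pax9 are its classical markers. Nkx3-2 acts with them as a repressor that permits cartilage formation, Foxc1 and Foxc2 are forkhead factors required for paraxial mesoderm and somite formation, and Meox1 and Meox2 are homeobox factors of the early somite. Tcf15 (paraxis) is a basic helix-loop-helix factor needed for epithelial somites, and Uncx is a homeobox factor of the caudal part of each somite that controls formation of vertebral pedicles.

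Levels are CPM, a gene's counts relative to its library's total after TMM scaling, and differences are log2 fold changes ± SE from edgeR's quasi-likelihood test, with p-values adjusted over all 17120 genes. Calls were made where that value was below 0.05. Library totals ran from 17116084 to 22775275 counts, apart from AGN D8.5 replicate 1 with 38120841. The library of CD1530 D6.75 replicate 1 stood apart from its own replicates: the chi-square statistic per gene was 20.3 and 21.5 against them, compared with 1.58 to 4.76 for the other 31 pairs of replicates. Without it, the calls between the ligands of Foxc2, Tcf15 and Uncx at D6.75 were lost, and Meox2 gained a call from D6.75 to D7.5 with CD1530 (-0.27 ± 0.11, adjusted p = 0.0547 with it, and -0.31, adjusted p = 0.0423 without it). The change of Nkx3-2 over that step, not called, changed sign (-0.03 with it and 0.11 without it), as did its interaction, and the other member values of D6.75 kept their direction and side of the threshold. In the libraries labelled PM, 4 pluripotency markers (Pou5f1, Nanog, Sox2, Zfp42) summed to 1796 to 1827 CPM and 4 markers of presomitic mesoderm (Tbx6, Msgn1, Hes7, Dll1) to 27.8 to 29.3 CPM. The presomitic sum was 5.00 to 10.2 CPM at D10 over both ligands, and Tbx6, a defining factor of presomitic mesoderm, averaged 9.56 CPM in PM and at most 0.360 CPM at D10. Most of the D10 sum was Dll1, at 8.33 CPM with CD1530 and 4.03 CPM with AGN.

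On GRCm38 with GENCODE M21, Pax1 (ENSMUSG00000037034) lies at chr2:147361925-147393295 on the + strand, and Pax9 (ENSMUSG00000001497) at chr12:56691767-56712822 on the + strand. Nkx3-2 (ENSMUSG00000049691) is at chr5:41761483-41764501 on the - strand. The single-exon genes Foxc1 (ENSMUSG00000050295) and Foxc2 (ENSMUSG00000046714) are at chr13:31806633-31812476 and chr8:121116171-121118895, both on the + strand. Meox1 (ENSMUSG00000001493) is at chr11:101877510-101894374 on the - strand, and Meox2 (ENSMUSG00000036144) at chr12:37108540-37179534 on the + strand. Tcf15 (ENSMUSG00000068079) is at chr2:152143561-152149097 and Uncx (ENSMUSG00000029546) at chr5:139543494-139548179, both on the + strand. Pax9 shares 189 bp of exon sequence, 3.74% of its exons, with Slc25a21 on the other strand, which had 0 to 26 counts per library. Pax1 shares 183 bp, or 4.07%, with the antisense gene AI646519, which was not among the genes analysed here. The strand setting of the counting is not given in the sources used here, so reads from these stretches cannot be assigned to a strand.

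The stretches of 250 bases before the start sites of 3 of these genes are shown, because Pax1 and Pax9 were lower with the retinoid agonist late in the time course and Foxc1 changed sides over it. Nkx3-2 and Meox2 were also lower with the agonist at D10 (-1.50 and -1.86), and their windows were searched but are not shown. The sequences are from RefSeq (GRCm38.p6), run 5′ to 3′ on the + strand, and have capitals only where a motif matched. RefSeq promoters were matched for 6 of the 9 genes, and Foxc2, Meox1 and Tcf15 had none. Both strands were searched for half-sites of the retinoic acid receptor (AGGTCA and its variants, namely AGTTCA as well as GGGTCA and also GGTTCA) and for the hedgehog effector site of GLI factors (GACCACCCA). The stretch GACC of the GLI site also occurs in the reverse complement of AGGTCA and of GGGTCA, so matches of both motifs could overlap.
Pax1, chr2:147364744-147364993: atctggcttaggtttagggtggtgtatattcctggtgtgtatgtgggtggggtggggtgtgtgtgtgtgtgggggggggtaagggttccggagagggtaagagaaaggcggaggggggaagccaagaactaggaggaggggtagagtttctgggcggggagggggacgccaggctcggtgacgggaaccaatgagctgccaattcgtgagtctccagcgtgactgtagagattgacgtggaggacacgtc
Pax9, chr12:56695221-56695470: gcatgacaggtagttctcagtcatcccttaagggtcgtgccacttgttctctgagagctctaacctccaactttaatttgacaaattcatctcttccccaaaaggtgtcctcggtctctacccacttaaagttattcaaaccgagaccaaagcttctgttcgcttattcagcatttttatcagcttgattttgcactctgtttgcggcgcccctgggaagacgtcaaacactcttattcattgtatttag
Foxc1, chr13:31806396-31806645: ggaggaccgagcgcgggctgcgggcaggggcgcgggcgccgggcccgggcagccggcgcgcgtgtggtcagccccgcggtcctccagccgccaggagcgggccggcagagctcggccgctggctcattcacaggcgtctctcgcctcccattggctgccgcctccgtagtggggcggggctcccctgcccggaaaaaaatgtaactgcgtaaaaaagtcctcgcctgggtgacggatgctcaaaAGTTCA
Foxc1 held 1 half-site, AGTTCA, starting 6 bases before the start, and the other 5 matched genes held neither motif in this window. Half-sites occurred in 38.6% of 32851 mouse promoter windows of this length and the GLI site in 0.225%. The Pax1 and Pax9 windows lie in introns of longer GENCODE transcripts of the same genes, and the last 13 bases of the Foxc1 window lie in its GENCODE exon. The searched windows of Nkx3-2 and Uncx lie wholly within GENCODE exons of those genes, and that of Meox2 within the gene Gm48617. GC content was 58.8% for Pax1, 43.6% for Pax9 and 70.8% for Foxc1, with a median of 52.4% over all windows. A match is a description of the letters only, and the search says nothing about more distant enhancers.

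Uncx had its highest group mean in PM, and the other genes had theirs after induction. Per kb of exon, the highest group mean was 79.8 CPM per kb for Foxc1, 58.6 for Meox1, 52.8 for Tcf15 and 40.8 for Foxc2. It was 9.45 CPM per kb for Nkx3-2, 6.27 for Meox2, 3.74 for Pax1, 3.18 for Pax9 and 1.77 for Uncx. The sclerotome genes stood at the lower end of this per-length scale, with Meox2 and Uncx. The highest group mean in CPM exceeded the lowest 144-fold for Nkx3-2, 75.8-fold for Pax9 and 56.3-fold for Pax1, with the lowest in PM. That span was 26.1-fold for Foxc1, 22.1-fold for Meox1, 20.8-fold for Foxc2, 10.5-fold for Meox2, 6.51-fold for Uncx and 5.13-fold for Tcf15.

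**Figure D1:**
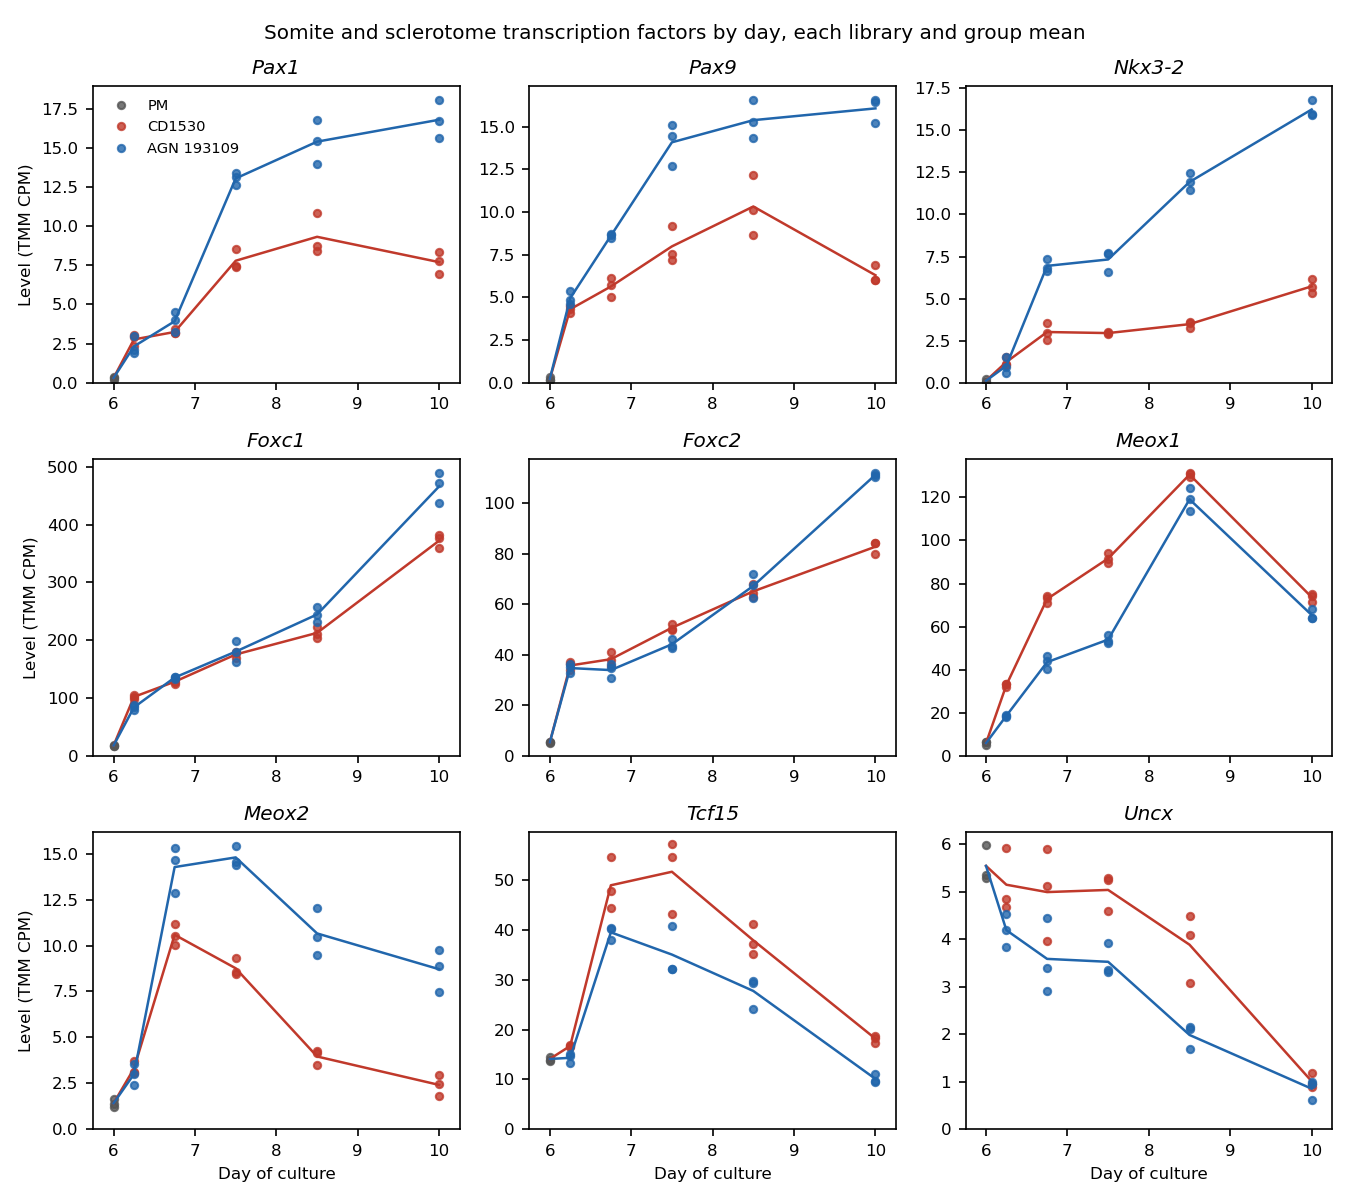
Level of each gene (TMM CPM, axis from 0) against day of culture, with a point for each of the 33 libraries and a line through the group means from PM. Pax1, Pax9, Nkx3-2 and Meox2 separate with AGN (blue) above CD1530 (red), Meox1, Tcf15 and Uncx have CD1530 above AGN over most of the course, and Foxc1 and Foxc2 have AGN above CD1530 at D10 (Foxc1 also at D8.5), at 372 and 82.8 CPM with CD1530 and 466 and 111 CPM with AGN.

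The ligands were compared at each time point, which asks when the levels of these factors differ between CD1530 and AGN. The groups hold no induced culture without a ligand. A difference therefore cannot be assigned to the agonist or to the inverse agonist. At D6.25, 2 of the 9 were called, Foxc1 and Meox1, both higher with CD1530, where 1.92% of all genes were called and 1.23% were called higher. At D6.75, 7 of 9 were called (18% of all genes), 4 higher (7.94%) and 3 lower (10%) with CD1530. At D7.5, 8 of 9 were called (26.9% of all genes), 4 higher (15.2%) and 4 lower (11.8%). At D8.5, 8 of 9 were called (40% of all genes), 3 higher (20.4%) and 5 lower (19.6%). At D10, 8 of 9 were called (46.6% of all genes), 2 higher (22.7%) and 6 lower (24%). The median log2 fold change of the 9 genes was 0.25 at D6.25 and -0.43 at D10, while that of all genes was -0.0031 and -0.019. The number called at D6.75 fell to 4 without CD1530 replicate 1, to 4 without AGN replicate 2 and to 4 when only the libraries of those groups were fitted, and Foxc2, Tcf15 and Uncx were the ones lost each time. The remaining calls of D6.75 were Pax9, Nkx3-2, Meox1 and Meox2, which without CD1530 replicate 1 stood at -0.54 (adjusted p = 0.000985), -1.34 (adjusted p = 4.83e-10), 0.73 (adjusted p = 3.28e-19) and -0.39 (adjusted p = 0.0086).

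**Figure D2:**
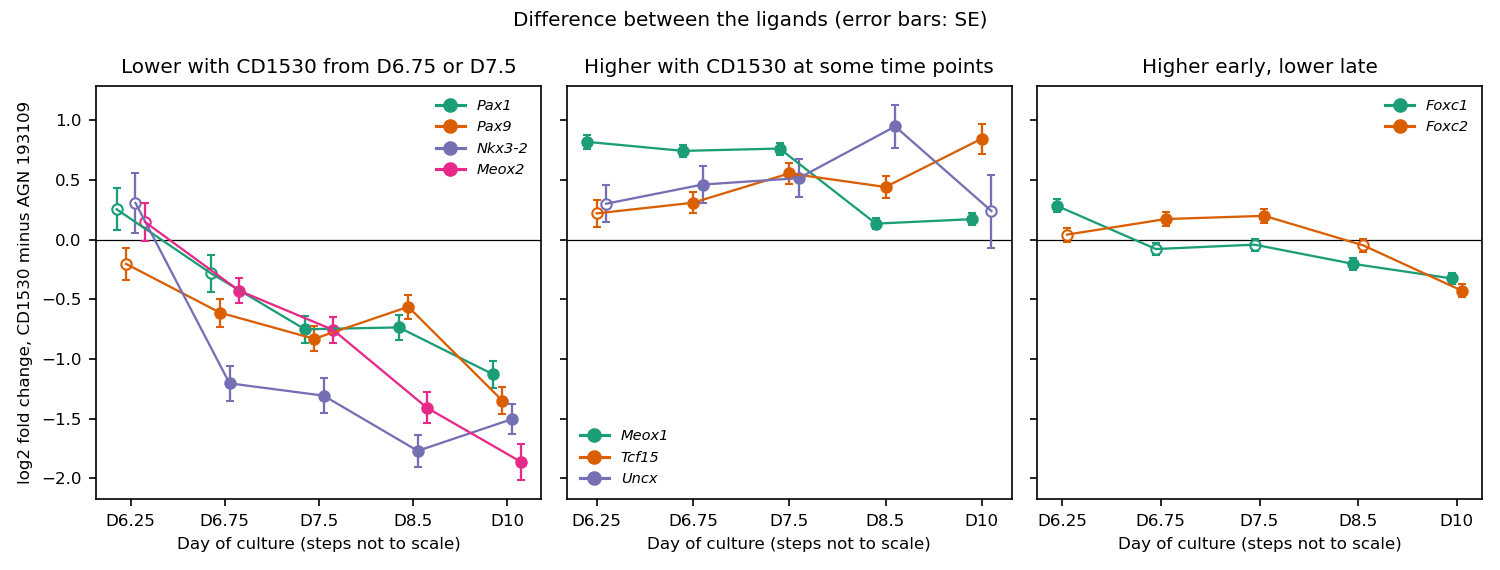
Log2 fold change of CD1530 against AGN (vertical axis, error bars SE) at each time point for the 9 genes in 3 panels, with filled points for calls at an adjusted p-value under 0.05. The left panel falls from between -0.20 and 0.31 at D6.25 to between -1.13 and -1.86 at D10, the middle panel lies above 0, and the right panel crosses 0.

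Pax1 and Pax9, the paired-box factors of the sclerotome, rose from a few counts in PM with both ligands and ended lower with CD1530. Pax1 had 0.383, 0.189 and 0.323 CPM in the PM libraries, from 18 counts in all, and Pax9 had 0.144, 0.331 and 0.162 CPM, from 13 counts. At D6.25, Pax1 reached 2.33, 2.94 and 3.02 CPM with CD1530 and 2.97, 2.10 and 1.88 CPM with AGN. All libraries of D6.25 were above PM and the ligands overlapped. By summed counts, Pax1 at D6.25 was 9.37 times PM with CD1530 (95% counting interval 5.76 to 16.2) and 7.84 times with AGN (4.79 to 13.6), and Pax9 was 20.0 times (11.5 to 38.1) and 23.1 times (13.3 to 43.8). The intervals cover counting error only. PM and D6.25 also differ in culture format, embryoid body against monolayer, so the change of format and the added factors cannot be told apart.

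At D7.5, Pax1 stood at 8.55, 7.46 and 7.37 CPM with CD1530 and at 12.6, 13.2 and 13.4 CPM with AGN. At D10 it stood at 6.97, 7.76 and 8.38 CPM with CD1530 and at 18.1, 15.7 and 16.7 CPM with AGN. Every AGN library was above every CD1530 library from D7.5 on. The difference, CD1530 against AGN, was 0.25 ± 0.18 at D6.25 (adjusted p = 0.645) and -0.28 ± 0.15 at D6.75 (adjusted p = 0.231), and then -0.75 ± 0.11 at D7.5 (adjusted p = 1e-06), -0.73 ± 0.11 at D8.5 (adjusted p = 4e-07) and -1.13 ± 0.11 at D10 (adjusted p = 4e-11). Pax9 had 4.50, 4.09 and 4.30 CPM with CD1530 at D6.25 and 4.85, 4.59 and 5.39 CPM with AGN, which did not overlap but did not pass the test (-0.20 ± 0.13, adjusted p = 0.621). Its first call was at D6.75, where it had 5.04, 6.14 and 5.72 CPM with CD1530 and 8.64, 8.69 and 8.49 CPM with AGN, groups that did not overlap, and differed by -0.61 ± 0.12 (adjusted p = 0.000115). At D10, Pax9 had 6.87, 5.999 and 6.01 CPM with CD1530 and 15.2, 16.6 and 16.5 CPM with AGN, a 2.55-fold lower level with CD1530 (-1.35 ± 0.11, adjusted p = 1.82e-13). The time of separation was not itself compared between Pax1 and Pax9.

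With AGN, Pax1 and Pax9 reached most of their level by D7.5. Pax1 rose by 1.73 ± 0.13 from D6.75 to D7.5 (adjusted p = 1.16e-14), and the later steps were 0.25 ± 0.10 (adjusted p = 0.0461) and 0.11 ± 0.10 (adjusted p = 0.339). The 0.25 step lost its call without any 1 of 5 libraries, AGN D8.5 replicate 1 or 3 or any AGN D7.5 replicate, where its adjusted p was 0.0709 to 0.262, and also under DESeq2 (adjusted p = 0.0686) and under scaling by library size (0.16, adjusted p = 0.204). With CD1530, Pax9 fell by 0.71 ± 0.12 from D8.5 to D10 (adjusted p = 1.76e-06), while with AGN the same step was 0.07 ± 0.10 (adjusted p = 0.539). The steps differed by -0.79 ± 0.15 (adjusted p = 0.0001). Pax1 fell by 0.28 ± 0.12 with CD1530 over that step (adjusted p = 0.0486), a call lost without CD1530 D8.5 replicate 1 (adjusted p = 0.337) or without D10 replicate 1 or 2 (adjusted p = 0.201 and 0.0806) and under DESeq2 (adjusted p = 0.0876), and its steps differed between the ligands by -0.39 ± 0.16 (adjusted p = 0.0608).

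Nkx3-2, the repressor that acts with the Pax factors, had the largest ligand difference of the 3 sclerotome genes at each time point from D6.75 on. It had 1, 5 and 1 counts in the PM libraries, or 7 in all. At D6.25 it had 1.04, 1.11 and 1.53 CPM with CD1530 and 0.915, 1.51 and 0.577 CPM with AGN, which overlapped. At the next time point, D6.75, it stood at 3.56, 2.96 and 2.52 CPM with CD1530 and at 6.65, 6.80 and 7.37 CPM with AGN, without overlap. The step from D6.25 to D6.75 was 1.27 ± 0.20 with CD1530 (adjusted p = 8.51e-07) and 2.79 ± 0.18 with AGN (adjusted p = 2.33e-16), a difference of -1.51 ± 0.29 (adjusted p = 0.000489). Without CD1530 D6.75 replicate 1 the CD1530 step was 1.14 (adjusted p = 9.69e-06) and the difference -1.65 (adjusted p = 4.96e-05). From D6.75 the level with CD1530 stayed below AGN by -1.20 ± 0.14 (adjusted p = 1.72e-08), -1.31 ± 0.15 at D7.5 (adjusted p = 1.8e-09), -1.77 ± 0.14 at D8.5 (adjusted p = 2.94e-14) and -1.50 ± 0.12 at D10 (adjusted p = 1.42e-13).

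At D10 Nkx3-2 had 5.66, 5.34 and 6.18 CPM with CD1530 and 15.94, 16.80 and 15.98 CPM with AGN, 2.84-fold more. By summed counts it was 49.6 times PM with CD1530 (95% counting interval 23.8 to 124) and 141 times with AGN (68.0 to 351). Unlike Pax1 and Pax9, Nkx3-2 rose in the last step with both ligands, by 0.72 ± 0.15 with CD1530 (adjusted p = 0.000116) and 0.45 ± 0.11 with AGN (adjusted p = 0.000499). The last step did not pass the test for a difference between the ligands (0.27 ± 0.19, adjusted p = 0.33).

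The forkhead genes Foxc1 and Foxc2 ended at their highest levels with both ligands, and changed sides between the ligands on the way. Foxc1 had 18.7, 17.7 and 17.3 CPM in PM. At D6.25 it had 98.0, 102 and 106 CPM with CD1530 and 87.3, 84.4 and 79.9 CPM with AGN, and all CD1530 libraries were higher (0.28 ± 0.05, adjusted p = 0.00131). At D10 it had 359, 377 and 381 CPM with CD1530 and 489, 472 and 437 CPM with AGN, and all CD1530 libraries were lower (-0.32 ± 0.05, adjusted p = 8.6e-07). In between, the groups overlapped at D6.75 (-0.08 ± 0.05, adjusted p = 0.346) and D7.5 (-0.04 ± 0.05, adjusted p = 0.612). At D8.5 it had 204, 223 and 211 CPM with CD1530 and 258, 244 and 231 CPM with AGN, with every CD1530 library lower (-0.20 ± 0.05, adjusted p = 0.00135). Foxc1 rose in each of the 4 steps with both ligands, most in the last, by 0.81 ± 0.05 with CD1530 (adjusted p = 1.72e-16) and 0.93 ± 0.05 with AGN (adjusted p = 1.47e-18). The step that differed was D6.25 to D6.75, 0.33 ± 0.05 with CD1530 and 0.69 ± 0.05 with AGN, a difference of -0.36 ± 0.08 (adjusted p = 0.00161), and of -0.35 (adjusted p = 0.0141) without CD1530 D6.75 replicate 1.

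Foxc2 had 5.55, 5.10 and 5.39 CPM in PM and 32.7 to 37.0 CPM over the 6 libraries of D6.25, where the ligands overlapped (0.04 ± 0.06, 95% interval -0.08 to 0.16). The step from D6.25 to D6.75 was not called with either ligand (0.09 ± 0.06, adjusted p = 0.19 with CD1530, and -0.04 ± 0.06, adjusted p = 0.669 with AGN). At D7.5 all CD1530 libraries, at 52.0, 50.4 and 49.7 CPM, were above AGN at 46.1, 42.7 and 43.6 CPM (0.20 ± 0.06, adjusted p = 0.00634). At D10 the order was the opposite, 79.8, 84.4 and 84.1 CPM with CD1530 against 110, 111 and 112 CPM with AGN (-0.43 ± 0.05, adjusted p = 5.7e-09). The last step was 0.35 ± 0.05 with CD1530 and 0.72 ± 0.05 with AGN, a difference of -0.38 ± 0.08 (adjusted p = 0.00014). The step from D7.5 to D8.5 also differed, by -0.25 ± 0.08 (adjusted p = 0.0311), but that call was lost in 8 of 12 fits that left out 1 of its libraries, with adjusted p-values of 0.0522 to 0.109, and under scaling by library size (adjusted p = 0.0919). The 8 libraries were AGN D7.5 replicates 2 and 3, AGN D8.5 replicates 1 and 2, CD1530 D7.5 replicates 1 and 2 and CD1530 D8.5 replicates 1 and 3.

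Meox1 was the first of the 9 genes to separate by a large margin, and in the direction opposite to Meox2. Meox1 had 6.46, 4.82 and 6.46 CPM in PM. At D6.25 it had 33.3, 32.1 and 33.3 CPM with CD1530 and 18.6, 18.2 and 19.1 CPM with AGN, with no overlap and a 1.77-fold higher level with CD1530 (0.82 ± 0.06, adjusted p = 6.17e-13). Against PM this was a rise of 2.48 ± 0.07 with CD1530 (adjusted p = 1.2e-28) and of 1.66 ± 0.08 with AGN (adjusted p = 2.19e-21). The difference was 0.74 ± 0.05 at D6.75 (adjusted p = 5.92e-15) and 0.76 ± 0.05 at D7.5 (adjusted p = 5.37e-16). It then shrank, as AGN rose by 1.14 ± 0.05 from D7.5 to D8.5 and CD1530 by 0.51 ± 0.05, a difference between the steps of -0.63 ± 0.07 (adjusted p = 4.55e-09).

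At D8.5, its peak with both ligands, Meox1 had 130, 131 and 131 CPM with CD1530 and 114, 124 and 119 CPM with AGN. All CD1530 libraries were higher, by 0.13 ± 0.05 (adjusted p = 0.0196), a call lost without AGN replicate 1 (0.10, adjusted p = 0.141) or without CD1530 replicate 2 (adjusted p = 0.0569). From D8.5 to D10 it fell by 0.83 ± 0.05 with CD1530 (adjusted p = 4.61e-18) and by 0.86 ± 0.05 with AGN (adjusted p = 1.3e-18). At D10 the levels were 71.5, 74.2 and 75.3 CPM with CD1530 and 68.1, 64.1 and 63.9 CPM with AGN, still without overlap (0.17 ± 0.05, adjusted p = 0.00499).

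Meox2 had 1.39, 1.65 and 1.19 CPM in PM and then a peak that was transient with CD1530. With AGN it averaged 14.3 CPM at D6.75, 14.8 CPM at D7.5 and still 8.71 CPM at D10. At D6.75 it reached 10.0, 10.5 and 11.2 CPM with CD1530 and 12.9, 14.7 and 15.3 CPM with AGN, groups that did not overlap (-0.43 ± 0.11, adjusted p = 0.00269). At D10 it had 1.82, 2.48 and 2.92 CPM with CD1530, against 9.75, 7.47 and 8.91 CPM with AGN. That is 3.64-fold less with CD1530 (-1.86 ± 0.15, adjusted p = 1.44e-13), the greatest estimate of a ligand difference at D10 among the 9 genes, an order that was not tested. The difference from D6.75 on had grown through -0.76 ± 0.11 at D7.5 (adjusted p = 4.78e-07) and -1.41 ± 0.13 at D8.5 (adjusted p = 6.71e-12). From D7.5 to D8.5 Meox2 fell by 1.14 ± 0.14 with CD1530 and by 0.49 ± 0.10 with AGN, and these steps differed by -0.65 ± 0.17 (adjusted p = 0.0078). The further fall with AGN to D10, 0.28 ± 0.12 (adjusted p = 0.0375), lost its call without AGN D8.5 replicate 2 or 3 or without AGN D10 replicate 2 or 3, with adjusted p-values of 0.0587 to 0.241, and under DESeq2 (adjusted p = 0.0769).

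Tcf15 and Uncx were the members that ended below their PM level with AGN. Tcf15 had 14.0, 14.6 and 13.7 CPM in PM and did not pass the test at D6.25 with CD1530 (0.24 ± 0.11, adjusted p = 0.0592) or AGN (0.02 ± 0.12, adjusted p = 0.876). The CD1530 value did pass when only the groups compared were fitted (adjusted p = 0.00639) and under scaling by library size (adjusted p = 0.0217). It then rose by 1.55 ± 0.10 with CD1530 (adjusted p = 1.15e-14) and 1.46 ± 0.10 with AGN (adjusted p = 1.85e-13) to D6.75. At D7.5 it had 57.3, 54.7 and 43.2 CPM with CD1530 and 32.1, 32.2 and 40.9 CPM with AGN, where the lowest CD1530 and the highest AGN library lay close together but did not overlap. The difference was 0.31 ± 0.09 at D6.75 (adjusted p = 0.0134), 0.56 ± 0.09 at D7.5 (adjusted p = 1.33e-05) and 0.44 ± 0.10 at D8.5 (adjusted p = 0.000336). The D7.5 call did not pass when only those 6 libraries were fitted (0.54, adjusted p = 0.0674). The D6.75 call did not pass without CD1530 replicate 1 (0.23, adjusted p = 0.116) or without AGN replicate 2 (0.28, adjusted p = 0.0647).

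At D10 Tcf15 had 17.4, 18.8 and 18.4 CPM with CD1530 and 9.57, 11.02 and 9.68 CPM with AGN, with every CD1530 library above PM and every AGN library below it. Against PM the values were 0.36 ± 0.12 with CD1530 (adjusted p = 0.00467) and -0.48 ± 0.13 with AGN (adjusted p = 0.0011), comparisons that share the 3 PM libraries. Between the ligands the difference was 0.85 ± 0.13 (adjusted p = 1.1e-06), the greatest in favour of CD1530 at D10.

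Uncx had 5.36, 5.29 and 5.98 CPM in PM and declined. At D8.5 it had 3.07, 4.10 and 4.48 CPM with CD1530 and 2.11, 2.14 and 1.69 CPM with AGN, with no overlap and a 1.93-fold higher level with CD1530 (0.95 ± 0.18, adjusted p = 4.08e-05). At D10 it had 0.960, 0.881 and 1.18 CPM with CD1530 and 1.00, 0.602 and 0.951 CPM with AGN, which overlapped. The D10 difference was 0.24 ± 0.31 (adjusted p = 0.555, 95% interval -0.38 to 0.86), and the change in the difference from D8.5 to D10 was not called (-0.71 ± 0.36, adjusted p = 0.15). Against PM, Uncx was lower at D6.25 with AGN (-0.40 ± 0.15, adjusted p = 0.0195) and not called with CD1530 (-0.10 ± 0.15, adjusted p = 0.558), and the AGN call was lost without PM replicate 3 (adjusted p = 0.0745) or AGN replicate 1 (adjusted p = 0.0811). By D10 it had fallen by 2.45 ± 0.20 with CD1530 (adjusted p = 3.06e-14) and by 2.69 ± 0.22 with AGN (adjusted p = 1.42e-14). With CD1530 most of the fall came in the last step, by 1.94 ± 0.22 (adjusted p = 5.84e-10).

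The calls of Uncx between the ligands at D6.75 (0.46 ± 0.16, adjusted p = 0.0345) and D7.5 (0.52 ± 0.16, adjusted p = 0.013) rested on single libraries. The first was lost without CD1530 replicate 1 (0.33, adjusted p = 0.211) or 3 (adjusted p = 0.0712) and without AGN replicate 2 (adjusted p = 0.122) or 3 (adjusted p = 0.194). The D7.5 call was lost without AGN replicate 2 (adjusted p = 0.0528) or 3 (adjusted p = 0.0575). The Foxc2 difference at D6.75 (0.17 ± 0.06, adjusted p = 0.0352), whose groups overlapped, was likewise lost without AGN replicate 1 or 2 or CD1530 replicate 1 or 2, with adjusted p-values of 0.0556 to 0.274.

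Against PM, 7 of the 9 genes were called at D6.25 with CD1530 (67.8% of all genes) and 8 with AGN (68.1% of all genes). At D10, 9 were called with CD1530 (83.2% of all genes), 8 higher (43.3%) and 1 lower (39.9%), and 9 with AGN (82% of all genes), 7 higher (41.6%) and 2 lower (40.4%). The median log2 fold change of the 9 genes at D10 was 3.95 with CD1530 and 4.38 with AGN, and that of all genes 0.043 and -0.0025. Over single steps with CD1530, 6 of 9 were called from D6.25 to D6.75 (45.9% of all genes), 5 to D7.5 (34.2%), 6 to D8.5 (36.5%) and 9 to D10 (57.3%). With AGN the counts were 7 (43.7%), 5 (30.3%), 8 (42.1%) and 7 (59.4%). In the last step with CD1530, 3 genes rose (Nkx3-2, Foxc1, Foxc2) and 6 fell, where 27.4% of all genes were called higher and 29.9% lower. In that step with AGN the same 3 rose and 4 fell (Meox1, Meox2, Tcf15, Uncx), while Pax1 and Pax9 were not called, and 29.9% of all genes were called higher and 29.5% lower.

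**Figure D3:**
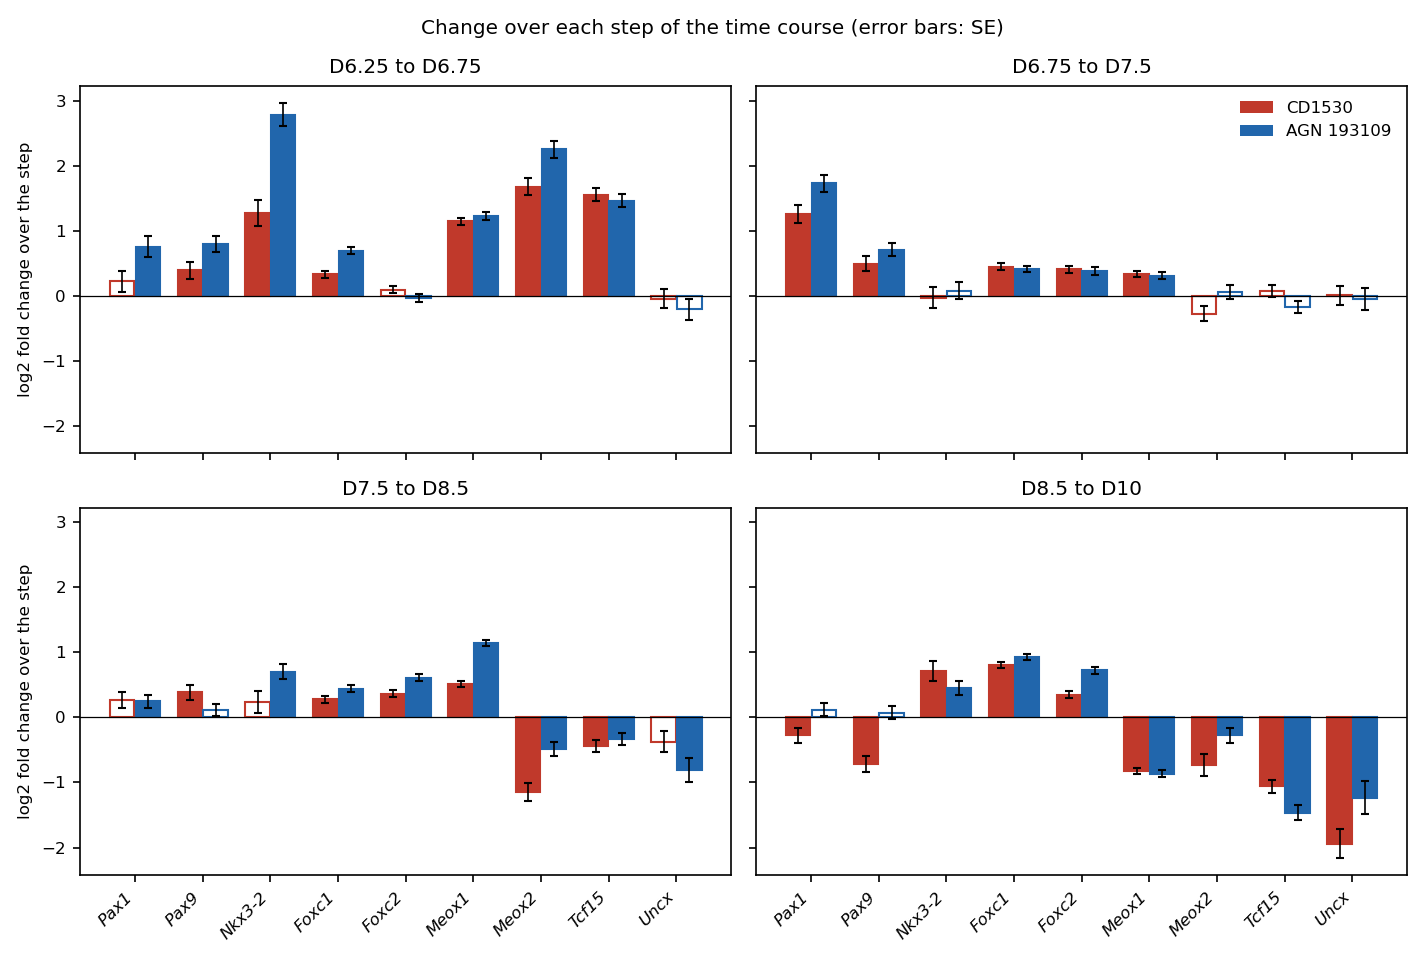
Log2 fold change of each gene over each step between time points (bars, error bars SE) for CD1530 in red and AGN in blue, with filled bars for calls at an adjusted p-value under 0.05. Nkx3-2 has the tallest bar from D6.25 to D6.75, 2.79 with AGN, Pax1 from D6.75 to D7.5, 1.73 with AGN, and Uncx the deepest in the last step, -1.94 with CD1530.

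Whether the ligand difference changed over the 5 time points was tested with an interaction of 4 degrees of freedom. It was called for 8 of 9 genes, all but Uncx (adjusted p = 0.152), where 48.8% of all genes were called. By single steps, the interaction was called for 2 of 9 from D6.25 to D6.75 (4.82% of all genes), 0 of 9 from D6.75 to D7.5 (9% of all genes, with 2 at an unadjusted p under 0.05 and 0 by DESeq2), 3 of 9 from D7.5 to D8.5 (11.5% of all genes) and 2 of 9 from D8.5 to D10 (26.8% of all genes). All 7 of these step interactions were negative, so the change over the step was lower with CD1530 than with AGN in each of them. Negative interactions were called for 2.54%, 6.59% and 14.1% of all genes in the steps to D6.75, D8.5 and D10. A positive interaction of Tcf15 in the last step was not called (0.41 ± 0.16, adjusted p = 0.0568), but passed in a fit that was not robust (adjusted p = 0.0499), under DESeq2 (0.39, adjusted p = 0.0445), with only the groups compared (0.45, adjusted p = 0.00174) and in 3 fits, those without AGN D8.5 replicate 3 (adjusted p = 0.0221), AGN D10 replicate 2 (adjusted p = 0.0481) or CD1530 D8.5 replicate 3 (adjusted p = 0.0334).

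The balance between paralogues moved with the ligand for the Meox pair. Per kb of exon and within each library, Meox1 was 4.93 times Meox2 in PM as a median, with a range of 3.09 to 5.78. At D10 the ratio was 31.8 with CD1530, from 27.3 to 41.6, and 7.59 with AGN, from 7.40 to 9.10. The ratios of the ligands did not overlap at any of the 5 time points. For Pax1 over Pax9 the median ratio was 0.79 with CD1530 and 0.51 with AGN at D6.25, and 1.46 and 1.14 at D10. Its libraries overlapped between the ligands at all time points but D6.75, where the ratio was 0.622 to 0.703 with CD1530 and 0.421 to 0.586 with AGN. For Foxc1 over Foxc2 the median was 1.33 with CD1530 and 1.12 with AGN at D6.25, and 2.10 and 1.98 at D10. In between the order was the opposite, 1.53 and 1.79 at D6.75, 1.61 and 1.96 at D7.5 and 1.53 and 1.73 at D8.5. The libraries of the ligands did not overlap at any of these time points, but the gap was narrow at all except D6.25. The highest CD1530 and lowest AGN ratios were 1.739 and 1.753 at D6.75, 1.643 and 1.645 at D7.5 and 1.565 and 1.584 at D8.5. At D10 the lowest CD1530 ratio was 2.080 and the highest AGN ratio 2.069.

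**Figure D4:**
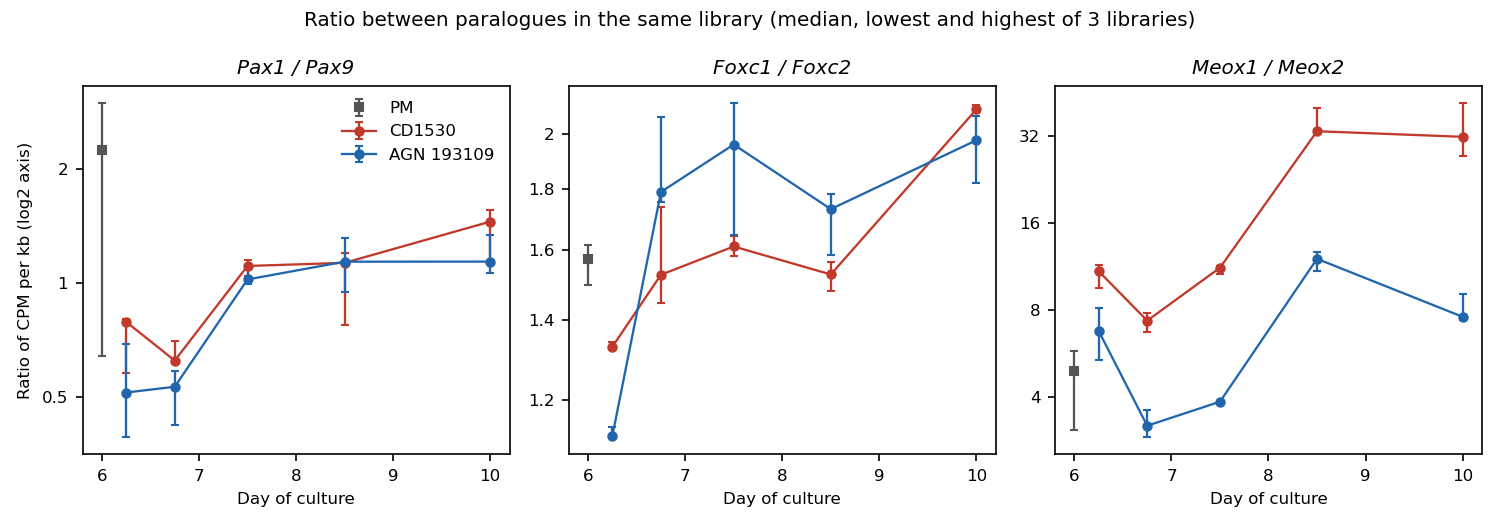
Ratio of CPM per kb of exon between paralogues in the same library against day of culture (log2 axis), with the median of 3 libraries as the point and the lowest and highest as bars. Meox1 over Meox2 parts the ligands at all 5 time points, 31.8 with CD1530 and 7.59 with AGN at D10, while Pax1 over Pax9 overlaps at D10, at 1.46 and 1.14.

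Other genes of somite patterning were read from lists set by known function, with earlier results of these data known. Their counts beside the share of all genes are therefore descriptions, not tests of the lists. At D10, Gli1, a transcriptional effector and target of hedgehog signalling, had 47.5 ± 1.27 CPM with CD1530 and 79.0 ± 7.47 CPM with AGN (SD, n = 3; -0.73 ± 0.07, adjusted p = 2.2e-12). The receptor gene Ptch1 (-0.98 ± 0.08, adjusted p = 2.45e-11) and Hhip, which encodes a hedgehog-binding inhibitor (-1.45 ± 0.08, adjusted p = 2.27e-19), were also lower with CD1530. All 4 sclerotomal cartilage genes (Sox5, Sox6, Col2a1, Acan) were lower with CD1530, where 24% of all genes were called lower and 22.7% higher, with a median of -3.30 beside -0.019 for all genes. Sox9, the master factor of cartilage, had 69.0 ± 1.94 CPM with CD1530 and 143 ± 9.17 CPM with AGN (SD, n = 3; -1.05 ± 0.05, adjusted p = 2.97e-21). Scx, the tendon progenitor factor, was also lower with CD1530 (-0.51 ± 0.04, adjusted p = 1e-14), and Twist1, a mesenchymal factor, was higher (0.17 ± 0.06, adjusted p = 0.0289), with overlapping libraries. Of 4 BMP antagonist and feedback genes, 3 were lower with CD1530 (Grem1, Id1, Id3), beside 24% of all genes, and Nog was not called, with a median of -1.04.

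Of 7 tested genes of the dermomyotome, the dorsal part of the somite, 4 were higher with CD1530 (22.7% of all genes) and 1 lower (24%) at D10, with a median of 0.59. Pax3, its paired-box factor, had 1.29 ± 0.445 CPM with CD1530 and 0.428 ± 0.254 CPM with AGN (SD, n = 3; 1.57 ± 0.36, adjusted p = 0.00039). The 5 neural markers were also higher with CD1530 at D10, and which cells made the dermomyotome genes was not tested. Pax7, Myf5 and Ripply2 were not among the genes analysed here. Of 8 presomitic and segmentation genes, 2 were higher (22.7% of all genes) and 2 lower (24%) with CD1530, with a median of -0.20. Tbx18, a factor of the rostral part of each somite where Uncx marks the caudal part, had 8.31 ± 0.706 CPM with CD1530 and 12.4 ± 1.65 CPM with AGN (SD, n = 3; -0.58 ± 0.12, adjusted p = 0.00017). Epha4, the other rostral gene listed, was not called. Of 6 other forkhead genes, 1 was higher (22.7% of all genes) and 3 lower (24%) with CD1530, with a median of -0.45. All 4 retinoic acid receptor targets were higher with CD1530 (22.7% of all genes), among them Cyp26a1, which encodes an enzyme that degrades retinoic acid (6.11 ± 0.08, adjusted p = 6.3e-41).

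These are bulk libraries of whole cultures, in which fewer cells of a type and less RNA per cell cannot be told apart. Pax1 and Pax9 are also made in pharyngeal endoderm. The 5 endoderm markers (Foxa1, Foxa2, Sox17, Epcam, Cldn6) summed to 316 to 348 CPM with CD1530 and 428 to 454 CPM with AGN at D6.75, where 5 of 5 were lower with CD1530 (10% of all genes). They summed to 148 to 153 and 162 to 169 CPM at D10, where 3 of 5 were lower (24%) and 2 higher (22.7%). The 3 lower were Foxa2, Epcam and Cldn6, and the 2 higher were Sox17 and Foxa1, the latter at 79.7 CPM with CD1530 and 16.1 CPM with AGN. Foxc1, Foxc2 and Meox2 are also made in endothelium. The 5 endothelial markers (Pecam1, Cdh5, Kdr, Tek, Emcn) summed to 317 to 372 CPM with CD1530 and 235 to 247 CPM with AGN at D6.75, where 5 of 5 were higher with CD1530 (7.94% of all genes), and to 142 to 155 and 132 to 140 CPM at D10, where 2 were higher (22.7%) and 2 lower (24%). In PM, Epcam averaged 250 CPM in an endoderm sum of 293 to 300 CPM. Pecam1 averaged 92.9 CPM there, in an endothelial sum of 102 to 107 CPM. The sums thus rest largely on single genes in PM and are not a measure of cell numbers. At D6.25 the endoderm sum was 480 to 488 CPM with CD1530 and 527 to 534 CPM with AGN. Foxa2 averaged 0.730 CPM in PM and then 46.1 and 49.5 CPM, and Sox17 0.968 and then 67.5 and 80.9 CPM. Foxa1 and Cldn6 were also higher than in PM, and Epcam was lower. The endothelial sum was 199 to 237 and 205 to 209 CPM. Cdh5, Kdr, Tek and Emcn were higher than in PM, and Pecam1 was lower. No endoderm or endothelial marker was at 0 counts in all libraries of any group. The part of these cells in the results was not tested.

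The 5 neural markers summed to 88.8 to 92.6 CPM with CD1530 and 20.5 to 21.8 CPM with AGN at D10, where 5 of 5 were higher with CD1530, beside 22.7% of all genes higher and 24% lower in that comparison. The 7 markers of intermediate and lateral mesoderm summed to 43.5 to 49.4 and 13.2 to 14.0 CPM, with 5 of 7 higher and 1 lower, and Pax2 was at 0 in 1 of the 11 groups. Osr1 made up most of that sum with CD1530, at 38.3 CPM. With AGN, Osr1 averaged 7.01 CPM and Lhx1 5.84 CPM. The 4 pluripotency markers summed to 155 to 161 CPM with CD1530 and 237 to 248 CPM with AGN at D10. Of these, 1 was lower with CD1530, Pou5f1, at 26.6 CPM with CD1530 and 149 CPM with AGN. The 2 higher were Nanog (46.1 and 35.2 CPM) and Sox2 (77.9 and 49.2 CPM), opposite to the sum. Muscle markers summed to at most 2.22 CPM with CD1530 and 4.10 CPM with AGN at D10, and Myod1 was at 0 in 1 group. The part of these cells in the results was not tested either.

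The order of the groups was also compared gene by gene. Pax1, Pax9 and Nkx3-2 had their highest mean in AGN D10, followed by AGN D8.5 and AGN D7.5, and the lowest in PM. For Pax9 the libraries of these 3 AGN groups overlapped from each group to the next, and for Nkx3-2 AGN D10 stood above AGN D8.5 without overlap. Foxc1 and Foxc2 were highest in AGN D10 and next in CD1530 D10, without overlap. Meox1 was highest in CD1530 D8.5, Meox2 in AGN D7.5 and Tcf15 in CD1530 D7.5, the latter 2 overlapping with their next group. Uncx was highest in PM and lowest in AGN D10, and each of the 8 highest Uncx groups overlapped with the next except for AGN D7.5 with AGN D8.5.

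Across the 11 group means of log2(CPM + 1), the members formed a graded series rather than 1 pattern. Pearson's r was 0.982 between Foxc1 and Foxc2, 0.934 between Pax1 and Pax9 and 0.892 between Pax1 and Nkx3-2. Foxc1 had r = 0.906 with Pax1 and 0.885 with Pax9, where Nkx3-2 had 0.880 with Pax9. Meox1 had 0.839 with Pax1. Meox2 had r = 0.583 with Pax1 and 0.698 with Nkx3-2, Tcf15 had 0.191 with Pax1, and Uncx had -0.657 with Pax1. These are descriptions over groups that share time points and PM, not tests. Among 12264 genes with a group mean of at least 5 CPM, the genes most like Pax1 were Adgra3 (r = 0.991), Rnf144a and Fnbp1l, and those most like Pax9 were Sestd1 (r = 0.980), Sema3f and Sox11. Nkx3-2 was most like Lrrn2 (r = 0.969), Adamtsl2 and Med22. Foxc1 was most like Mfap2 (r = 0.994), Armcx3 and Ndst1, and Foxc2 most like Six5 (r = 0.993), Smo and Zmiz1. Meox1 was most like Klhl23 (r = 0.977), Crmp1 and Cdh10, and Meox2 most like Etv1 (r = 0.943), Smpd2 and Lrrn3. Tcf15 was most like Angel1 (r = 0.944), Thsd1 and Hecw2, and Uncx most like Pced1b (r = 0.982), Dlgap3 and Ttpa. An r above 0.9 was reached by 11.1% of these genes for Foxc1 and by 0.0245% for Tcf15. The names depend on the measure of likeness: of these 27 genes, 2 were named again with Spearman's correlation and 19 with a pseudocount of 0.1, where Pax1 kept 1 of 3, Pax9 1 of 3 and Nkx3-2 0 of 3.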

How the data were processed

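RNA sequencing counts of 33 cultures in 11 groups of 3 were analysed. According to the methods, reads were aligned to GRCm38 with STAR and assigned to genes with featureCounts. The authors deposited raw counts per gene, and the annotation release, strand setting and treatment of reads with several alignments are not given in the sources used here. All 17120 genes had 0.611 CPM or more in at least 3 libraries, so low genes had been removed. Groups came from the labels' titles.

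All 33 libraries entered 1 fit with 11 group means in edgeR 4.0.16 (R 4.3.3; TMM, robust quasi-likelihood F test, no covariates). The edgeR filter on low counts removed 0 genes. P-values were adjusted (Benjamini-Hochberg) over all genes within each of 28 contrasts. Alternatives were DESeq2 1.42.0, other size factors and filters, a fit that was not robust, fits of only the groups compared, a replicate block and leaving out each library. The test was checked on simulated data. Positions and exon lengths came from GENCODE M21, which matched 17120 of 17120 identifiers, with Python 3.11.15.

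Genes were named as the 9 members and the members of lists set by known function. The members and lists were chosen with earlier results of these data known. For the hedgehog and sclerotome lists, single members are given and the list counts are not reported here. Likeness was Pearson's r over 11 means of log2(CPM + 1), naming the 3 highest. Where a group has few counts, ratios to PM carry 95% exact binomial intervals of the counts. Replicate numbers were shared between groups, but in 22 of 23 contrasts at least 1 same-numbered pair of deviations correlated below 0.1, and the block was not used.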

Additional observations from a re-analysis of the deposited data

Results flagged for a closer look

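The size of the difference between the ligands was not constant in time for 8 genes. In edgeR's interaction test over the 5 time points the adjusted p-value was 6.8e-06 for Pax1, 8.12e-06 for Pax9, 3.11e-06 for Nkx3-2 and 1.8e-07 for Foxc1. It was 1.93e-08 for Foxc2, 1.1e-12 for Meox1, 6.26e-10 for Meox2 and 0.0156 for Tcf15.

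Over single steps, 7 changes differed between the ligands, given here as the CD1530 change minus the AGN change in log2. From D6.25 to D6.75 they were -1.51 for Nkx3-2 and -0.36 for Foxc1. From D7.5 to D8.5 they were -0.63 for Meox1, -0.65 for Meox2 and -0.25 for Foxc2, the last of which was lost in 8 of 12 fits without 1 library. From D8.5 to D10 they were -0.79 for Pax9 and -0.38 for Foxc2.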

How the results depend on the processing

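Of the members' values under the alternatives, 3849 kept their direction and side of the threshold, 54 lost their call, 26 gained one and 31 changed sign. When only the libraries of the groups compared were fitted, the genes called numbered 804 between the ligands at D6.25 and 1236 at D6.75, in place of 329 and 3076, and 4 members were called at D6.75. The same fit called 5185 genes for CD1530 from D6.25 to D6.75 and 2792 from D6.75 to D7.5, 439 for the interaction over the first of these steps and 649 over the second, in place of 7853, 5854, 826 and 1541. The cause was not tested.

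Signs changed only for values that were not called: Uncx with CD1530 from D6.75 to D7.5 (-0.0106 scaled by library size, -0.0034 with only the groups compared), Pax9 with AGN from D8.5 to D10 (-0.0281 scaled by library size) and the Meox1 interaction from D6.75 to D7.5 (-0.00609 and -0.000509 in the same order). Scaling by library size moved the median of all genes by -0.149 for AGN D10 against PM, -0.112 for CD1530 D10 against PM and -0.100 for AGN from D8.5 to D10.

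Without each library in turn, 196 to 276 genes were called at D6.25 and 662 to 1301 for the interaction from D6.25 to D6.75. Members called ranged from 4 to 6 between the ligands at D6.75, from 0 to 1 for the interaction from D6.75 to D7.5 and from 2 to 4 from D8.5 to D10. Values that changed sign ranged, for Foxc1 between the ligands at D7.5, from -0.109 to 0.034, and for Tcf15 with AGN at D6.25 against PM from -0.0121 to 0.0743. From D6.25 to D6.75 the ranges were -0.181 to 0.0933 for Uncx with CD1530 and -0.0825 to 0.0258 for Foxc2 with AGN. From D6.75 to D7.5 they were, with CD1530, -0.142 to 0.111 for Nkx3-2, -0.00277 to 0.191 for Tcf15 and -0.132 to 0.143 for Uncx, and, with AGN, -0.0165 to 0.107 for Meox2 and -0.166 to 0.15 for Uncx. For the interaction over that step they were -0.22 to 0.0339 for Nkx3-2, -0.0312 to 0.112 for Foxc1, -0.0218 to 0.0881 for Foxc2, -0.0226 to 0.0713 for Meox1 and -0.141 to 0.189 for Uncx, and from D7.5 to D8.5 -0.107 to 0.0929 for Pax1.

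The replicate numbers were treated as names. A replicate block added a call for Meox2 with CD1530 from D6.75 to D7.5 (-0.275, adjusted p = 0.0464) and for the Pax1 interaction over the last step (-0.40, adjusted p = 0.0475), and changed no other member call. In 0 of 23 contrasts did every sample correlate best with its own number. CD1530 from D6.25 to D6.75 was the 1 contrast with all same-numbered correlations over 0.1 (0.323, 0.136 and 0.256). Of 27 genes named as most alike, 24 were named again with a minimum of 1 CPM. Depth limited the low members: PM held 18, 13 and 7 counts of Pax1, Pax9 and Nkx3-2.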
